A study of Saccharomyces cerevisiae with 6 samples.

Results

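Transcription factor IIH (TFIIH) was examined through its 10 subunit genes in *Saccharomyces cerevisiae*. The 10 genes were chosen by name and were all found among the 5913 genes of the deposited table. TFIIH is the general transcription factor that opens promoter DNA for RNA polymerase II and phosphorylates the C-terminal domain (CTD) of its largest subunit, which marks the start of elongation. The same complex opens DNA around lesions in nucleotide excision repair. It is made of a core, which holds both helicase-type ATPases and their structural partners, and of a kinase module called TFIIK. The core genes are *SSL2*, *RAD3*, *TFB1*, *TFB2*, *TFB4*, *TFB5* and *SSL1*, and the kinase module genes are *KIN28*, *CCL1* and *TFB3*.

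The RNA came from 6 cultures of *not4Δ* cells in the BY4741 background, with 3 cultures expressing Not4RRM and 3 expressing Not4WT. Not4 is the ubiquitin ligase subunit of the Ccr4-Not complex, and Not4RRM carries alanine in place of conserved residues of its RNA recognition motif and neighbouring zinc finger. Both groups lack the chromosomal *NOT4* gene, and both proteins carried a FLAG tag and were made from the *ADH1* promoter on a *URA3* plasmid, in synthetic medium without uracil. The comparison asks whether mRNA levels differ when the RNA recognition motif and the zinc finger of Not4 are mutated. The paper also reports more *NOT4* mRNA and more Not4 protein with Not4RRM than with Not4WT. The mutation and the amount of Not4 therefore cannot be told apart here. Values are scaled read counts, that is, reads per gene brought by the authors to equal totals, so 1 unit means the same share of a library in each of the 6. The depth of each library before scaling is unknown. As the samples were brought down to the lowest coverage, it was at least the deposited total, so the SD from counting alone is at most the square root of a value, 8.84% for the lowest TFIIH value (128) and 1.94% for the highest (2644). The error used here is the spread between the 3 cultures of a group, and the labels do not say how far these were independent.

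As a check of the labels, *NOT4* had 33371, 40410 and 40314 scaled counts in the Not4RRM libraries and 12357, 13057 and 8966 in the Not4WT libraries. *URA3*, the marker of the plasmid, had 3990 to 9251 in Not4RRM and 1047 to 1270 in Not4WT. *LEU2* (11 to 19) and *MET17* (14 to 26), which BY4741 lacks, and the α-cell gene *MF(ALPHA)1* (3 to 14) were near 0 in the 6 libraries. The α-cell gene *STE3* was not as low, at 69 to 120. Of the **a**-cell genes, *STE2* had 5222 to 12373. *MFA1* varied widely, with 12269, 611 and 660 in Not4RRM and 8479, 5482 and 2660 in Not4WT. *HIS3*, of which BY4741 lacks only a part, had 805 to 2521. Not4RRM replicate 1 stood apart from the others of its group. On the log2 scale its Pearson correlation across genes was 0.952 with replicate 2 and 0.947 with replicate 3, which had 0.993 with each other, against 0.968 to 0.984 among the Not4WT libraries. Gene length also moved with the libraries. The Spearman correlation across genes between coding length and the deviation of a gene from its mean over the libraries was -0.46, 0 and -0.03 in the 3 Not4RRM libraries, against 0.22, 0.39 and 0.04 in the 3 Not4WT libraries. The fit was also made with the length trend removed from each library, and its values are given beside the main ones where they moved most.

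Fold changes below are log2 differences of Not4RRM minus Not4WT after TMM scaling (library factors from trimmed log ratios between libraries) and a pseudocount of 1, which understates changes of low genes. They were tested with limma over 5805 genes, and a gene was called at a Benjamini-Hochberg adjusted p under 0.05 and at least a 1.5-fold change. None of the 10 TFIIH genes was called, and 0 of the 5805 genes were (0%), while 926 had an unadjusted p under 0.05. Weighting by limma-voom also called 0, and the steps of the study's methods passed 355 of the 5913 genes listed. Among the TFIIH genes, *TFB5* and *CCL1* were higher in Not4RRM at an unadjusted p under 0.05, which is 2 of 10 beside 9.84% of all tested genes, and no TFIIH gene was lower at that level (6.12% of all tested genes). These 2 genes were also the ones whose groups did not overlap on the deposited values, both with Not4RRM above. Of all tested genes, 7.89% were above without overlap and 18.7% below. By the unequal-variance test of the study's methods, in which the adjustment is made within a list already selected, *TFB5* and *CCL1* passed as higher and no TFIIH gene as lower, beside 2.20% and 3.81% of the genes listed. *CCL1* passed only at the edge, with a ratio of means of 1.5 and an adjusted p within that list of 0.0471 by this test (*TFB5* 0.0338). The median log2 fold change of the 10 genes was 0.23, against 0.05 over all tested genes, with 6 of the 10 positive beside 54.8% of all tested genes. With the length trend removed, the median was 0.19 for the 10 genes and -0.02 for all genes, *KIN28* had a log2 fold change of -0.22 and *TFB3* one of 0.12. Without TMM factors, on the equal totals as deposited, the median of all genes lay 0.12 lower (a shift of -0.12). RNA of whole cultures was measured, so more RNA per cell and more cells with that RNA cannot be told apart.

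**Figure D1:**
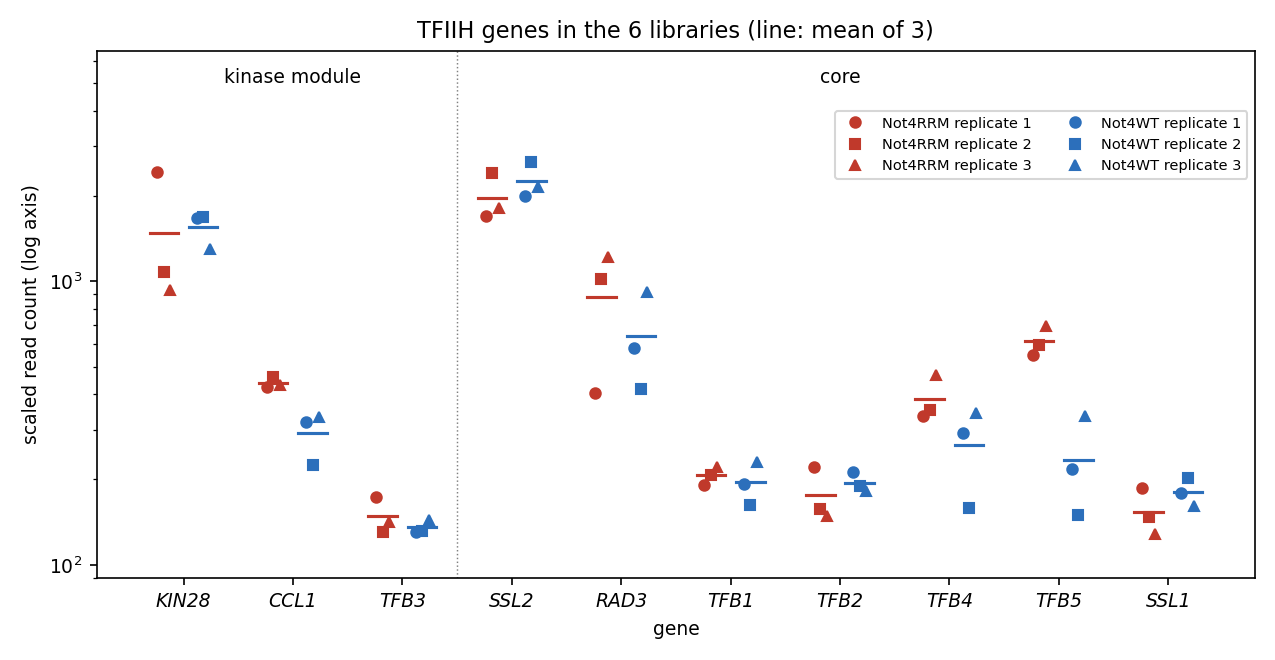
Scaled read count (log axis) of each TFIIH gene in every library, Not4RRM in red left of Not4WT in blue, with replicates 1, 2 and 3 as circles, squares and triangles and the group mean as a line. The groups are apart for *TFB5* and *CCL1*, and *KIN28* and *RAD3* are spread more widely within Not4RRM than between the group means.

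The promoters of 4 genes are shown as the 250 bases before the start codon, read from the R64 assembly on the strand of the gene. *TFB5* and *CCL1* are shown because their groups did not overlap, and *KIN28* and *RAD3* because they varied most within Not4RRM. Capitals mark a word of the TATA box consensus on either strand.
*TFB5* promoter (chrIV:603812-604061, reverse strand): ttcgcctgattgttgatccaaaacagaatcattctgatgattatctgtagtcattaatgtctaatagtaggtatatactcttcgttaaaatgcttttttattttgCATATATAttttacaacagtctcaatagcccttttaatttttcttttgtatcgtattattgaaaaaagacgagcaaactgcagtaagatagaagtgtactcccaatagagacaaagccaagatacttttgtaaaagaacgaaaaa
*CCL1* promoter (chrXVI:614559-614808, reverse strand): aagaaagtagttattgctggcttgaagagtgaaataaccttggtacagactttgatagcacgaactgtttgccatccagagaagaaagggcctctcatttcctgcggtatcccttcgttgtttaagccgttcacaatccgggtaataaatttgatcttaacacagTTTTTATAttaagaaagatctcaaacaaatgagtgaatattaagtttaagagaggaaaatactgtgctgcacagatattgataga
*RAD3* promoter (chrV:526832-527081, forward strand): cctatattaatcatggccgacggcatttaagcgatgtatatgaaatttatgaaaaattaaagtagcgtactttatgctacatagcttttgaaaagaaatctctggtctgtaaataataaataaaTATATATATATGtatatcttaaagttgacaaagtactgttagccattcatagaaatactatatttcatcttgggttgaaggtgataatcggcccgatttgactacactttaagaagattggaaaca
*KIN28* promoter (chrIV:267448-267697, forward strand): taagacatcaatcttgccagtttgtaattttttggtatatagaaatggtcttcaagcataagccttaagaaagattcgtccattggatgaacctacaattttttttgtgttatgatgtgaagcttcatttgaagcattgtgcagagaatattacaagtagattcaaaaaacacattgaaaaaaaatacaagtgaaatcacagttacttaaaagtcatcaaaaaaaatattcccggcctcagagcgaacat
The words searched were TATAAAAA, TATAAAAG, TATAAATA, TATAAATG, TATATAAA, TATATAAG, TATATATA and TATATATG, which overlap one another in the run of *RAD3*. *TFB5*, *CCL1*, *SSL1* and *RAD3* held at least 1 of them, which is 4 of 10 windows, against 36.7% of the 5906 windows of the same length before the genes of the table. The word lay 145 to 138 bases before the start codon in *TFB5* and 85 to 78 bases before it in *CCL1*, on the opposite strand in both. The PAC word GATGAG was found in *TFB3* alone (17.2% of all windows), the Gcn4 site TGACTC in *SSL2* alone (6.3%), and the Rpn4 site GGTGGCAAA in none (1.13%). In the *TFB5* window, the 54 bases farthest from the start codon lie inside *VPS41*, the gene on the other side.

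*TFB5* (YDR079C-A) encodes the smallest subunit, the homologue of human TTDA, which binds Tfb2 and stimulates the Ssl2 ATPase in repair. It lies on chromosome IV from 603593 to 603811 (reverse strand) and has a single coding exon of 219 bp, which encodes 72 residues. *TFB5* had 551, 594 and 698 scaled counts in the Not4RRM libraries and 217, 150 and 336 in the Not4WT libraries. Every Not4RRM library was above every Not4WT library (p = 0.1 by a two-sided exact permutation test, as low as 3 against 3 can give). The mean was 614 ± 75.6 in Not4RRM and 234 ± 94.2 in Not4WT (SD, n = 3 each), a ratio of 2.62. The log2 fold change was 1.58 (standard error 0.31, 95% interval 0.86 to 2.30, limma adjusted p = 0.112), which is the largest of the 10. A log2 fold change of at least 1 was found in 3.74% of all tested genes. Without Not4RRM replicate 1, *TFB5* was called, with a log2 fold change of 1.67 and a limma adjusted p of 0.0465. That fit called 3.92% of its genes as higher and 2.26% as lower, and *TFB5* was the only TFIIH gene called. With the trend with coding length removed from each library, the log2 fold change of *TFB5* was 1.11 (limma adjusted p = 0.0849).

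*TFB5* lies 196 bp from the start of *VPS41*, which is transcribed away from it, and 193 bp from *PET100* on its other side. The genes beside *TFB5* were looked up after its values were seen. *VPS41*, which encodes a subunit of the vacuolar tethering complex HOPS, had 609, 1013 and 906 scaled counts in Not4RRM and 1382, 1351 and 1096 in Not4WT. Its log2 fold change was -0.50 (standard error 0.23, limma adjusted p = 0.331), and its Not4RRM values all lay below the Not4WT values. It was -0.27 without Not4RRM replicate 1. *PET100* had 18 to 38 scaled counts in Not4RRM and 17 to 22 in Not4WT, so its groups overlapped. No annotated gene overlaps *TFB5* or any other of the 10 TFIIH genes.

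*CCL1* (YPR025C) encodes the cyclin of the kinase module, the partner that Kin28 needs for activity. It lies on chromosome XVI from 613377 to 614558 on the reverse strand, as 1 coding exon of 1182 bp. *CCL1* had 424, 459 and 432 scaled counts in the Not4RRM libraries and 318, 225 and 332 in the Not4WT libraries. The groups did not overlap (p = 0.1 by the same two-sided exact permutation test), and the Not4RRM libraries were close to one another. The mean was 438 ± 18.3 in Not4RRM and 292 ± 58.2 in Not4WT (SD, n = 3 each), a ratio of 1.5. Its log2 fold change was 0.73 (standard error 0.20, 95% interval 0.26 to 1.20, limma adjusted p = 0.179). It was 0.76 without Not4RRM replicate 1 (limma adjusted p = 0.0881) and 0.67 with the length trend removed (limma adjusted p = 0.169).

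*KIN28* (YDL108W) encodes the cyclin-dependent kinase that phosphorylates serines of the CTD. It lies on chromosome IV from 267698 to 268699 on the forward strand and is the only TFIIH gene with an annotated intron, of 81 bp from 267726 to 267806, which leaves 921 bp of coding sequence. *KIN28* had 2429, 1081 and 932 scaled counts in the Not4RRM libraries and 1669, 1690 and 1302 in the Not4WT libraries. Not4RRM replicate 1 was the highest of the 6 libraries, and Not4RRM replicates 2 and 3 were the lowest, so the Not4RRM group lay on both sides of Not4WT. The log2 fold change was -0.07 (standard error 0.34, 95% interval -0.86 to 0.72, limma adjusted p = 0.931). Without Not4RRM replicate 1 it was -0.49 (limma adjusted p = 0.0891). The cyclin and the kinase gene differed in how they varied over the libraries. Per kb of coding length, the ratio of *KIN28* to *CCL1* was 7.35, 3.02 and 2.77 in Not4RRM and 6.74, 9.64 and 5.03 in Not4WT.

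*TFB3* (YDR460W) encodes the RING finger protein that holds the kinase on the core, the homologue of human MAT1. It lies on chromosome IV from 1383811 to 1384776 on the forward strand. *TFB3* had 173, 131 and 142 scaled counts in Not4RRM and 131, 132 and 144 in Not4WT, which overlap. Its log2 fold change was 0.25 (standard error 0.18, 95% interval -0.18 to 0.67, limma adjusted p = 0.507), so a difference of about 1.5-fold lay within the interval.

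*RAD3* (YER171W), the homologue of human XPD, encodes the iron-sulfur helicase that unwinds DNA in repair. It lies on chromosome V from 527082 to 529418 on the forward strand. *RAD3* had 405, 1015 and 1214 scaled counts in the Not4RRM libraries and 581, 417 and 919 in the Not4WT libraries. Here Not4RRM replicate 1 was the lowest of the 6 libraries and Not4RRM replicates 2 and 3 were the highest. The log2 fold change was 0.51 with the widest interval of the 10 (-0.57 to 1.60, limma adjusted p = 0.589), and it was 1.01 without Not4RRM replicate 1 (limma adjusted p = 0.124). The order of the 6 libraries by *RAD3* was the exact reverse of their order by *KIN28*, with Not4RRM replicate 1, Not4WT replicate 2, Not4WT replicate 1, Not4WT replicate 3, Not4RRM replicate 2 and Not4RRM replicate 3 from the highest to the lowest *KIN28*. This pair was picked after its values were seen, and its relation was not tested. The ratio of *KIN28* to *RAD3* per kb was 15.22, 2.70 and 1.95 in Not4RRM and 7.29, 10.28 and 3.59 in Not4WT.

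**Figure D2:**
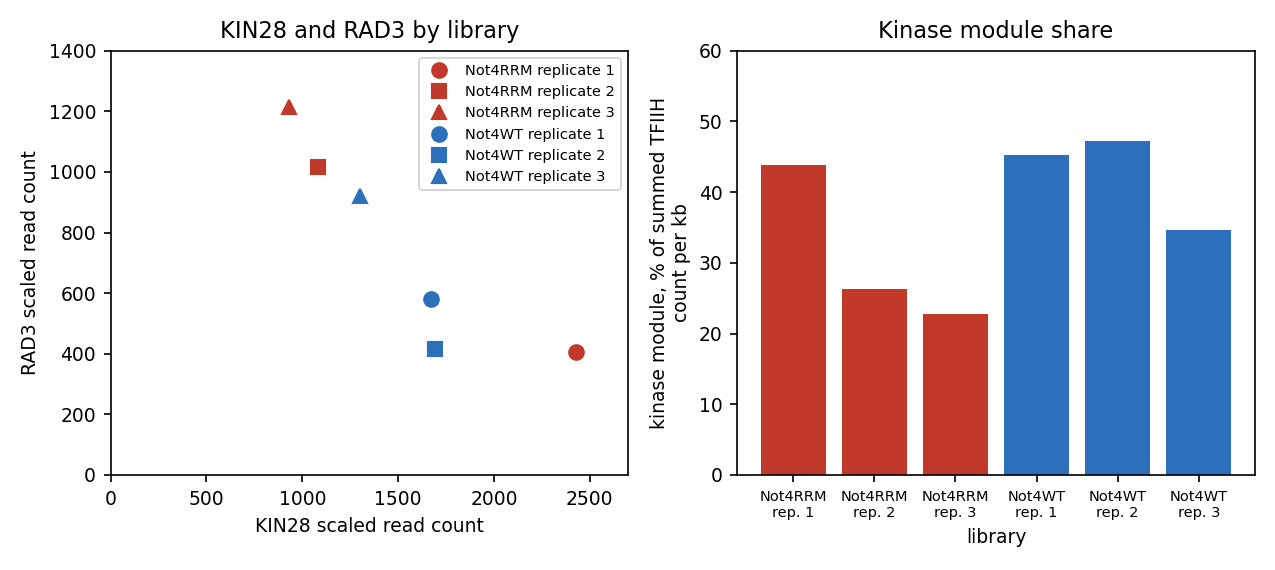
Left, *KIN28* against *RAD3* scaled counts in the 6 libraries, Not4RRM in red and Not4WT in blue, with marker shapes for replicates. Right, the kinase module genes as a percent of the summed TFIIH counts per kb, which was 22.7% to 43.9% in Not4RRM and 34.7% to 47.2% in Not4WT. *KIN28* made up most of the module's counts per kb. The sum also holds *TFB5*, a short gene overstated per kb, with means of 2810 in Not4RRM and 1070 in Not4WT. The share therefore mostly follows *KIN28* and *TFB5* and does not measure the module as a whole.

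*SSL2* (YIL143C), the homologue of human XPB, encodes the DNA translocase that opens the promoter. It lies on chromosome IX from 80510 to 83041 on the reverse strand and has the longest coding sequence of the 10, at 2532 bp. *SSL2* had 1695, 2413 and 1815 scaled counts in Not4RRM and 1997, 2644 and 2156 in Not4WT. The groups overlapped, and the log2 fold change was -0.08 (standard error 0.20, 95% interval -0.54 to 0.38, limma adjusted p = 0.856). Unlike *KIN28* and *RAD3*, *SSL2* did not place Not4RRM replicate 1 far from the others. The ratio of *SSL2* to *RAD3* per kb, the genes of both ATPases, was 3.86, 2.19 and 1.38 in Not4RRM and 3.17, 5.85 and 2.17 in Not4WT.

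*TFB4* (YPR056W) and *SSL1* (YLR005W) encode zinc-binding core subunits that bind each other, and Ssl1 binds and stimulates Rad3. *TFB4* lies on chromosome XVI from 671126 to 672142, and *SSL1* on chromosome XII from 160049 to 161434, both on the forward strand. *TFB4* had 336, 352 and 466 scaled counts in Not4RRM and 291, 159 and 343 in Not4WT. Its lowest Not4RRM library was just below its highest Not4WT library, and the log2 fold change was 0.72 (standard error 0.32, 95% interval -0.03 to 1.47, limma adjusted p = 0.322). After TMM scaling the groups of *TFB4* did not overlap, so 3 of the 10 genes had groups apart on that scale. The share of all tested genes apart on that scale was not counted, so no conclusion is drawn from this number. *SSL1* had 186, 147 and 128 scaled counts in Not4RRM and 179, 202 and 161 in Not4WT, and a log2 fold change of -0.12 (95% interval -0.55 to 0.31, limma adjusted p = 0.758). The genes of this pair of partners thus had estimates of opposite sign, and neither passed the test.

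*TFB1* (YDR311W) encodes the scaffold subunit that contacts activators and repair factors, and *TFB2* (YPL122C) the subunit that anchors Ssl2. *TFB1* lies on chromosome IV from 1085065 to 1086993 on the forward strand, and *TFB2* on chromosome XVI from 319226 to 320767 on the reverse strand. *TFB1* had 191, 208 and 221 scaled counts in Not4RRM and 193, 162 and 231 in Not4WT, and a log2 fold change of 0.22 (95% interval -0.25 to 0.68, limma adjusted p = 0.597). *TFB2* had 221, 158 and 149 in Not4RRM and 213, 189 and 182 in Not4WT, and a log2 fold change of -0.04 (95% interval -0.49 to 0.41, limma adjusted p = 0.931). The groups overlapped for both genes. *TFB5* and *TFB2*, whose proteins bind each other, did not vary together. The ratio of *TFB5* to *TFB2* per kb was 17.55, 26.47 and 32.98 in Not4RRM and 7.17, 5.59 and 13 in Not4WT, with no overlap. As the groups of *TFB5* were already apart by themselves, this ratio is not a separate result.

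**Figure D3:**
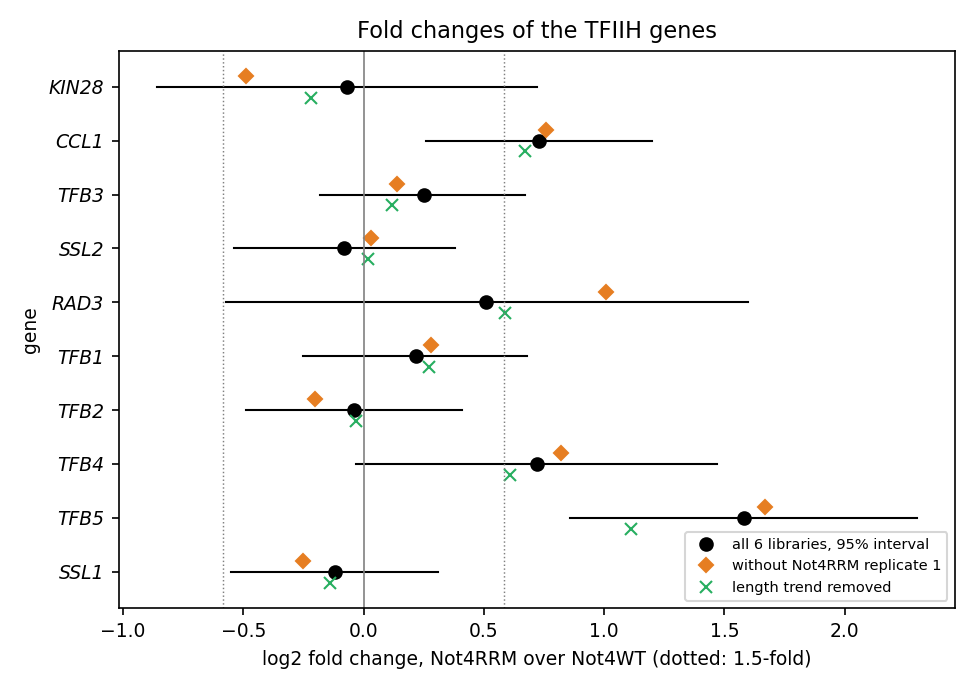
Log2 fold change of each TFIIH gene, Not4RRM over Not4WT, with the 95% interval of the limma fit to all 6 libraries (black), the estimate without Not4RRM replicate 1 (orange) and the estimate with the length trend removed (green). The intervals of *TFB5* and *CCL1* lie above 0, and the other 8 include 0.

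When Not4RRM replicate 1 was left out, the groups of 7 of the 10 genes no longer overlapped, against 2 with it. Above Not4WT were *TFB5*, *CCL1*, *TFB4* and *RAD3*, and below were *KIN28*, *TFB2* and *SSL1*. With 2 libraries against 3, 18.8% of all tested genes lay above and 35.6% below in this way. The median log2 fold change of the 10 genes was 0.21 in that fit, against 0.02 over all genes. The median of the kinase module was 0.25 in the full fit and 0.14 without this library, and that of the core was 0.22 and 0.28. In the full fit the modules thus differed by 0.03 (kinase module minus core). The sign changed to -0.15 with the length trend removed and to -0.14 without Not4RRM replicate 1.

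Levels of different genes were compared per kb of coding length, which leaves out untranslated regions and so overstates short genes such as *TFB5*. In Not4RRM the order was *TFB5* (2810 ± 345), *KIN28* (1610 ± 895), *SSL2* (780 ± 152), *TFB4* (378 ± 69.7), *RAD3* (376 ± 180), *CCL1* (371 ± 15.5), *TFB3* (154 ± 22.5), *TFB2* (114 ± 25.4), *SSL1* (111 ± 21.3) and *TFB1* (107 ± 7.80), each a mean ± SD of scaled counts per kb (n = 3). The ranges of neighbours were apart at 3 places, between *KIN28* and *SSL2*, between *SSL2* and *TFB4*, and between *CCL1* and *TFB3*, and overlapped at the others. In Not4WT the order began with *KIN28* (1690 ± 237), *TFB5* (1070 ± 430) and *SSL2* (895 ± 133), whose neighbouring ranges overlapped. They were followed by *RAD3* (273 ± 110), *TFB4* (260 ± 93.3) and *CCL1* (247 ± 49.2), and then by *TFB3* (140 ± 7.49), *SSL1* (130 ± 14.8), *TFB2* (126 ± 10.5) and *TFB1* (101 ± 17.9). Only the steps from *SSL2* to *RAD3* and from *CCL1* to *TFB3* were apart there. The ranges of genes farther apart in the order could still overlap, since *RAD3* in Not4RRM replicate 1 (173.3 per kb) lay below *TFB3* in that library (179.1 per kb). By their means, the lowest genes in both groups were *TFB1*, *TFB2*, *TFB3* and *SSL1*, which were at the 15.5 to 24.5 percentile of all genes in Not4RRM and at the 14.3 to 21.3 percentile in Not4WT. *KIN28* was at the 81.0 and the 81.2 percentile. The median of 5801 genes was 367 per kb in Not4RRM and 379 in Not4WT.

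**Figure D4:**
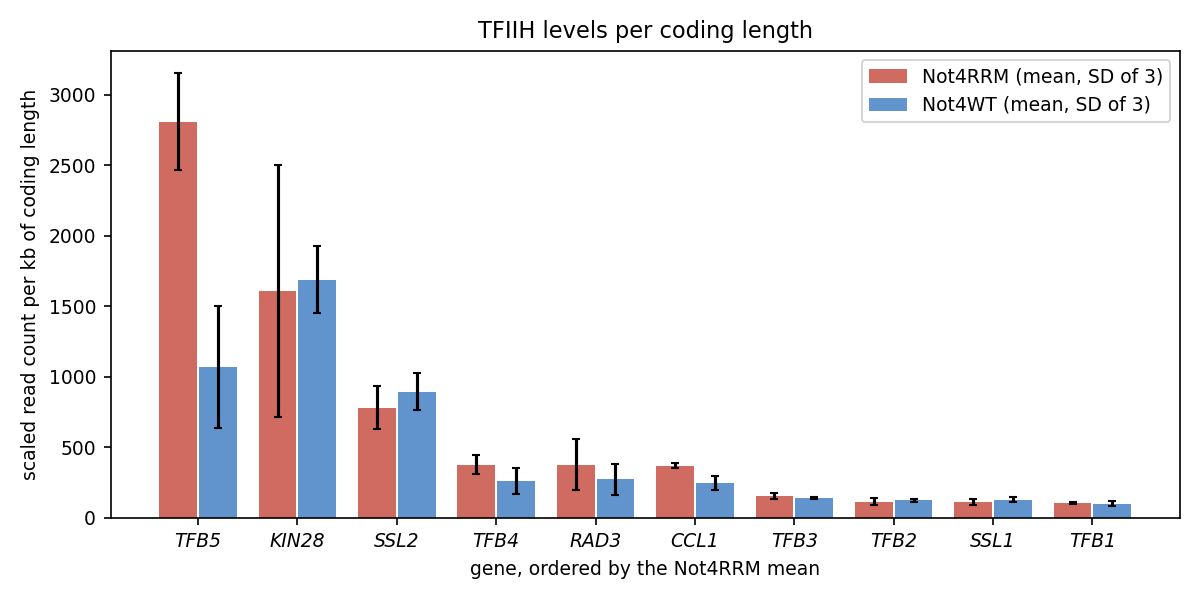
Mean scaled read count per kb of coding length of the TFIIH genes, ordered by the Not4RRM mean, with SD of 3 libraries as error bars, Not4RRM in red and Not4WT in blue. *TFB5* had 2810 in Not4RRM and 1070 in Not4WT, and *TFB1*, *TFB2*, *TFB3* and *SSL1* stayed at 101 to 154 in both groups.

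Together the 10 genes took 0.0444%, 0.0441% and 0.0416% of the scaled counts in the Not4RRM libraries and 0.0389%, 0.0401% and 0.0410% in the Not4WT libraries. The sums did not overlap between the groups, but the lowest Not4RRM sum (6197) was close to the highest Not4WT sum (6106). *SSL2*, *KIN28* and *RAD3*, which had the highest means, each overlapped between the groups. Sums of other sets of genes were not computed for comparison.

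Genes that work with TFIIH were compared in the same fit, as 6 lists with 61 genes. None of the 61 was called, and 7 were higher and 1 lower at an unadjusted p under 0.05, against 9.84% and 6.12% of all tested genes. Of the partners of TFIIH, *TFB6*, whose product releases Ssl2 from the complex, had a log2 fold change of 0 (95% interval -0.39 to 0.39). *CAK1*, the kinase that activates Kin28, had -0.27 (-0.74 to 0.19), and *MMS19* (also named *MET18*), which takes part in iron-sulfur assembly of Rad3, had -0.04 (-0.50 to 0.42). The other general transcription factors, 9 genes, had a median of 0.08, which was -0.11 without Not4RRM replicate 1 and -0.09 with the length trend removed. Among them *TOA1* of TFIIA had 568, 518 and 564 scaled counts in Not4RRM and 339, 418 and 457 in Not4WT, and a log2 fold change of 0.57 (limma adjusted p = 0.21). *TFG1* of TFIIF had 529, 631 and 598 in Not4RRM and 700, 837 and 652 in Not4WT, and a log2 fold change of -0.19 (limma adjusted p = 0.569). The groups were apart for both genes on the deposited values, but after TMM scaling those of *TFG1* overlapped, as did those of *RAD34* below. With the length trend removed *TOA1* had 0.40 and *TFG1* had -0.11.

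The 12 genes of nucleotide excision repair had a median log2 fold change of -0.02, with 6 positive and 6 negative, and leaving out Not4RRM replicate 1 gave a median of 0.08. *RAD7*, which is needed to repair untranscribed DNA, had 334, 311 and 211 scaled counts in Not4RRM and 482, 413 and 395 in Not4WT, and a log2 fold change of -0.49 (limma adjusted p = 0.297). It was the 1 gene of the 61 that passed the steps of the study's methods. *RAD34*, a relative of *RAD4*, had 62, 95 and 96 in Not4RRM and 100, 98 and 126 in Not4WT (log2 fold change -0.25, limma adjusted p = 0.629, and -0.03 without Not4RRM replicate 1).

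The 11 genes of other CTD kinases and phosphatases had a median of 0.24, which was 0.14 with the length trend removed. Of the 11, 9 were positive, beside 54.8% of all tested genes, and 3 were higher at an unadjusted p under 0.05, beside 9.84%. *SSU72*, a CTD phosphatase, had 122, 150 and 216 scaled counts in Not4RRM and 85, 45 and 101 in Not4WT. Its log2 fold change was 1.23 (standard error 0.37, limma adjusted p = 0.207), with the groups apart, and 0.92 with the length trend removed. *CTK2*, the cyclin of the CTD kinase CTDK-I, had 73, 85 and 86 in Not4RRM and 60, 41 and 66 in Not4WT, and a log2 fold change of 0.68 (limma adjusted p = 0.275), and 0.56 with the length trend removed. *FCP1* of the same list went the other way, with 646, 834 and 707 in Not4RRM and 1032, 1152 and 847 in Not4WT. Its log2 fold change was -0.34 (limma adjusted p = 0.371). Its groups were apart on the deposited values, as were 18.7% of all tested genes in that direction, but overlapped after TMM scaling. The 3 capping enzyme genes had a median of 0.19 and a range from -0.01 to 0.32. The 23 Mediator genes had a median of 0.16 and a range from -0.38 to 1.63, with 14 positive (60.9%, beside 54.8% of all tested genes). *CSE2*, of its middle module, had 465, 264 and 304 scaled counts in Not4RRM and 241, 221 and 250 in Not4WT (log2 fold change 0.62, limma adjusted p = 0.271). *ROX3*, of its head module, had 312, 193 and 204 in Not4RRM and 180, 187 and 156 in Not4WT (log2 fold change 0.53, limma adjusted p = 0.294). Both Mediator genes were highest in Not4RRM replicate 1. Without that library *CSE2* had a log2 fold change of 0.39 and *ROX3* one of 0.32, and with the length trend removed they had 0.22 and 0.24. The highest Mediator estimate was that of *SRB7*, whose groups overlapped, with 119, 297 and 346 in Not4RRM and 118, 33 and 133 in Not4WT. Its log2 fold change was 1.63 (limma adjusted p = 0.275), and 1.22 with the length trend removed.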

How the data were processed

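RNA-seq of 6 yeast cultures was analysed, 3 expressing Not4RRM and 3 expressing Not4WT, grouped by sample name. The authors trimmed Ion Torrent Proton reads, aligned them to the S288C transcriptome with STAR (version not given in the sources used here; build R64 in the submitters' processing notes), counted the reads of every transcript and brought all samples down to the lowest coverage. The methods and the labels name different library kits. The deposited values, whole numbers after this scaling, were treated as a score, as the 6 totals lie within 66 of each other, and no count model was used.

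A row without a gene name (1) was left out. A gene was tested if it reached 10 in 3 samples and 15 in sum, which held for 5805. TMM factors (trimming 30% of ratios and 5% of levels) were written out in code, and log2 values with a pseudocount of 1 were fitted with limma 3.58.1 in R 4.3.3, with group as the single term and a prior variance that follows the mean. In simulated data, 200 of 200 genes changed 3-fold were recovered among 5803 tested, and 4 unchanged genes were called. The simulation used the same spread setting for every gene, without a length trend or an outlying library. It therefore checks the code and does not tell what size of change could be called in these data. *NOT4* and *URA3*, with ratios of means of 3.32 and 5.26, were not called in the main fit (limma adjusted p = 0.072 for each). Coordinates are from the RefSeq annotation of R64, which matched 5907 of 5913 identifiers. Replicates differed by a mean chi-square of at least 25.2 per gene, so none was counted as a duplicate.

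All 10 TFIIH genes are named. From each other list, genes past the threshold are named, or else up to 2 with the largest fold change among those whose groups do not overlap. *FCP1* and *SRB7* are named besides these. The members, lists and tests were chosen with earlier results of these data known. Alternatives were other scalings, pseudocounts, filters, models and tests, a replicate block, a loess correction for coding length (span 0.5), no fold threshold, and each sample left out in turn.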

Additional observations from a re-analysis of the deposited data

How the results depend on the processing

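The depth before scaling is known only to be at least the deposited totals, which bounds the counting error, and 3 cultures against 3 limit every test. The number of genes called was 0 in the main fit. It was 4 with the length trend removed and 355 by the study's test and list adjustment, by which 2 TFIIH genes and 1 gene of the other lists passed. With 1 library left out, it was 0 to 358, with 0 to 1 TFIIH genes called, and the upper value in both came without Not4RRM replicate 1. The number of TFIIH genes whose groups did not overlap was 2 to 7 over these fits, with the 7 again without Not4RRM replicate 1. Of all tested genes, 18.8% lay above and 35.6% below without that library, and 7.89% and 18.7% with all 6 libraries on the deposited values. The share was not counted for the other fits, so no conclusion is drawn from this range. The neighbours in the order of levels with ranges apart were 3 to 6 in Not4RRM and 2 to 4 in Not4WT.

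Some estimates near 0 changed sign. *SSL2* had 0.02 with the length trend removed, with or without the replicate block, and -0.08 in the main fit. When a library was left out, *SSL2* ranged from -0.22 to 0.03, *KIN28* from -0.49 to 0.17 and *TFB2* from -0.20 to 0.05. *TFB5* ranged from 1.11 to 1.87 over 20 alternatives, with limma or all-gene adjusted p from 0.0465 to 0.445, and *CCL1* from 0.53 to 0.82, with adjusted p from 0.0881 to 0.485.

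Whether the replicate numbers pair the samples was not settled. In their deviations from the group means, same-numbered samples had correlations of 0.07, -0.15 and 0.38, beside -0.37 to 0.30 for differently numbered ones. With 3 samples per group and an outlying library, these values cannot decide it. With the replicate block, *TFB5* had 1.58 (limma adjusted p = 0.187), 0 genes were called, and no call on a TFIIH gene changed.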
